A study of Mus musculus with 8 samples.

Results

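Ly6a, Ly6c1, Ly6c2, Ly6e and Thy1 encode small proteins that a lipid (GPI) anchor holds on the outer face of the cell. Their 5 rows were taken by gene name from a table of 22075 genes measured in ILC2s (group 2 innate lymphoid cells), a lymphocyte type that carries no antigen receptor and releases type 2 cytokines. The cells came from lungs of C57BL/6 mice that carried floxed Stat3 (Stat3fl/fl) and had been exposed briefly to papain, a protease allergen, and IL-2 at 10 ng/ml expanded them over about 5 days. The 4 groups were STAT3-KO cells with IL-33 (VavicreStat3fl/fl, 10 ng/ml for 2 days), WT cells with IL-33 (the same IL-33, no Cre), STAT3-KO control cells and WT control cells. Each group held 2 libraries. Vav drives Cre throughout the blood lineages, so the genotype difference cannot be told apart from the presence of Cre. The labels give neither the animals' age, nor the medium of the control cells during the last days, nor whether replicates were separate mice or cultures, so p-values measure the spread between these libraries, which may be technical.

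The Ly6 proteins share one compact fold of the Ly6/uPAR superfamily, built from loops pinned by disulfide bonds. Sca-1, the product of Ly6a, marks blood stem and progenitor cells and is part of the surface profile by which mouse lung ILC2s are recognised. It is known to be induced by interferons, as is Ly6e, which is best known for limiting the entry of coronaviruses into cells. The antigen Ly6C, made from Ly6c1 and Ly6c2, is used to sort monocytes and memory T cells. Thy1 (CD90) is a small immunoglobulin-type GPI-anchored protein of T cells and ILC2s, in which it serves as a sorting marker.

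Levels are FPKM, which divides the fragments of a gene by its length and by library depth. Steps in the deposited values put the depth at 15843685 to 19905817 reads a library, at which 3 reads of a 1 kb gene equal 0.151 to 0.189 FPKM. Of the 14 ILC2 markers examined, 13 had a row and all 13 reached 1 FPKM in some library. Among them, Kit and Il17rb averaged only 0.318 and 0.351 FPKM in STAT3-KO cells with IL-33. Stat3, the deleted gene, measured 8.03 and 9.69 FPKM in STAT3-KO cells with IL-33 and 49.0 and 55.3 FPKM in WT cells with IL-33. In control cells it measured 15.3 and 16 FPKM in STAT3-KO and 41.7 and 50.7 FPKM in WT. The STAT3-KO libraries lay below the WT libraries in both conditions and kept some Stat3 reads. The floxed exons are not named in the labels.

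Ly6e, Ly6a, Ly6c1 and Ly6c2 sit in that order within the Ly6 cluster of mouse chromosome 15, and Thy1 sits alone on chromosome 9 (GRCm38). Ly6e (ENSMUSG00000022587) is at chr15:74955051-74959905 on the plus strand. Ly6a (ENSMUSG00000075602) is at chr15:74994877-74998031, Ly6c1 (ENSMUSG00000079018) at chr15:75044018-75048830 and Ly6c2 (ENSMUSG00000022584) at chr15:75108158-75111970, each on the minus strand. Thy1 (ENSMUSG00000032011) is at chr9:44043384-44048579 on the plus strand. The bodies of the 5 genes overlap 0 other annotated genes on either strand.

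Reads can only be assigned to one of these genes where their sequences differ. The coding sequences of Ly6c1 and Ly6c2 are 97.7% identical, with 9 mismatches over 393 bases. Ly6a is 81.8% identical to Ly6c1 and 81.6% to Ly6c2, whereas Ly6e is 49.7% to 52.3% identical to the other Ly6 genes. Of all 50-base stretches in the annotated transcripts, 32.8% of those of Ly6c1, 19.0% of those of Ly6a and 14.5% of those of Ly6c2 also occur in a transcript of another gene. That share was 0% for Ly6e and for Thy1. The following 60 coding bases (coding bases 6 to 65 of each gene, GENCODE M21 transcripts) hold 6 of the 9 differences and are shown because reads across them can tell Ly6c1 and Ly6c2 apart. They lie at chr15:75048447-75048506 in Ly6c1 and at chr15:75111603-75111662 in Ly6c2 (GRCm38, minus strand), are written 5′ to 3′, and have the differing bases in capitals.
Ly6c1: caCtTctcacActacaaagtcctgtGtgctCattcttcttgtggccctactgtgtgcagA
Ly6c2: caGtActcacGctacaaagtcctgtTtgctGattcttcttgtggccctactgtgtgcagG
In the capitals the 2 genes differ, and of reads inside these 60 bases only those wholly within a lower-case stretch fit both. No lower-case stretch here is as long as 50 bases.

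Upstream of their starts Ly6c1 and Ly6c2 are much less alike. RefSeq (GRCm38.p6) had a promoter entry for 2 of the 5 genes, Ly6c1 and Ly6c2, and not for Ly6a, Ly6e and Thy1. The 250 bases before the start are shown because these near-identical genes went in opposite directions with IL-33 in WT cells. They lie at chr15:75048838-75049087 for Ly6c1 and chr15:75111972-75112221 for Ly6c2, both on the minus strand, are written 5′ to 3′, and capitals mark bases that differ or have no partner where the 2 windows align.
Ly6c1 promoter: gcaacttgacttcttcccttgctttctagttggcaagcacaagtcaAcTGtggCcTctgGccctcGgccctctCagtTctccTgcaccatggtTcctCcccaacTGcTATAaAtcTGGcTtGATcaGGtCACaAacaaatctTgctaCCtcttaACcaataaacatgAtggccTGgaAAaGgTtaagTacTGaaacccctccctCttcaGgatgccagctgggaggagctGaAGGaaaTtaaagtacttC
Ly6c2 promoter: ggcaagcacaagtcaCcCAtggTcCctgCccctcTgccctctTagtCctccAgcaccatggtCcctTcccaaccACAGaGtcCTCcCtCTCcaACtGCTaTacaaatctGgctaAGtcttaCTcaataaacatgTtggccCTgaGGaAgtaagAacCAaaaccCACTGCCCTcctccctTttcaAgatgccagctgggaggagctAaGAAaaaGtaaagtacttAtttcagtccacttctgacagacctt
The windows align over 228 columns, of which 164 are identical (71.9%), 52 mismatched and 12 gaps. Both strands of each window were searched for 5 motifs, of which 0 overlapped another within these windows. The motif of STAT factors, TTCNNNGAA, occurs in 7.02% of 32851 promoter windows of this length. GAAANNGAA, the core of the interferon-stimulated response element, occurs in 7.13% of them. The letters AGATAA, read by factors of the GATA family, occur in 9.99%, TGANTCA of AP-1 in 6.75%, and TATAAA in 12.4%. The single match was TATAAA in the Ly6c1 window, starting 143 bases before the gene's start. The other motifs had 0 matches in both windows, which says only that these letters are not there.

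**Figure D1:**
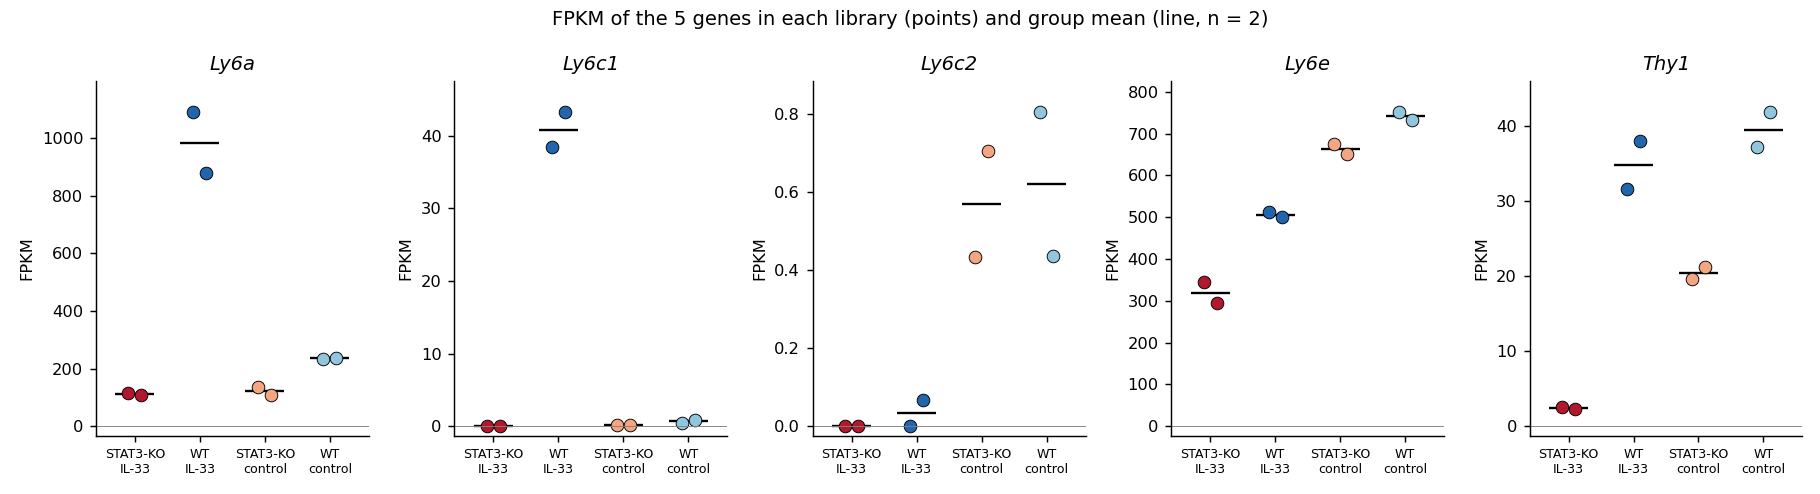
FPKM of Ly6a, Ly6c1, Ly6c2, Ly6e and Thy1 (vertical axes, each on its own linear scale from 0) in each library (points) of STAT3-KO IL-33, WT IL-33, STAT3-KO control and WT control cells, with the group mean as a line (n = 2). Ly6a and Ly6c1 were highest in WT IL-33 cells, at 878 to 1089 FPKM and 38.5 to 43.2 FPKM, Thy1 was lowest in STAT3-KO IL-33 cells, and Ly6e was lower in IL-33 than in control cells.

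Ly6a, the gene of Sca-1, was high in one group and moderate in the others. It measured 117 and 109.8 FPKM in STAT3-KO cells with IL-33 and 1089 and 878 FPKM in WT cells with IL-33. In control cells it measured 136 and 107.9 FPKM in STAT3-KO and 235 and 236 FPKM in WT. Both WT IL-33 libraries stood far above the rest, the STAT3-KO libraries of both conditions overlapped, and the WT control libraries lay between. On the log2(FPKM + 1) scale, with the standard error (SE) of limma and p adjusted over 11877 tested genes (Benjamini-Hochberg), IL-33 raised Ly6a in WT by 2.05 (SE 0.14, adjusted p = 2.15e-05), a mean 4.18 times that of the WT control cells. In STAT3-KO cells the IL-33 difference was -0.10 (SE 0.14, 95% interval -0.41 to 0.22, adjusted p = 0.583), and its sign turned when the libraries were rescaled by the median of ratios (0.11) and without STAT3-KO control replicate 1 (0.069). With IL-33, STAT3-KO cells held 11.5% of the WT mean, a difference of -3.10 (SE 0.14, adjusted p = 5.48e-06). That difference ranked 26 of 11877 from the most negative. In control cells STAT3-KO held 51.8% of the WT mean (-0.95, SE 0.14, adjusted p = 0.0299), and this call was lost in each of the 8 fits that left out 1 library (-1.12 to -0.79). The 2 IL-33 responses differed by -2.14 (SE 0.19, adjusted p = 0.000676). In RNA from a whole culture, fewer cells that express a gene and less of its RNA per cell cannot be told apart.

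Ly6c1 was close to the detection floor except in WT cells with IL-33. It had 3 and 1 reads (0.110 and 0.0336 FPKM) in STAT3-KO cells with IL-33, against 1284 and 1179 reads (38.5 and 43.2 FPKM) in WT cells with IL-33. In control cells it had 5 and 5 reads (0.177 and 0.186 FPKM) in STAT3-KO and 13 and 23 reads (0.462 and 0.866 FPKM) in WT. The WT IL-33 libraries were the only pair above 1 FPKM, so the gene entered the test through that group alone and had to differ there. In WT, IL-33 raised it by 4.66 (SE 0.20, adjusted p = 2.61e-06). From the summed reads, scaled by depth, the ratio of WT IL-33 to WT control cells was 61.7, with a 95% counting interval of 44.4 to 88.3. In STAT3-KO cells 4 reads with IL-33 stood against 10 in control, a ratio of 0.386 with an interval of 0.0883 to 1.34 that spans equality (fitted difference -0.14, SE 0.20, adjusted p = 0.580). With IL-33 the STAT3-KO to WT ratio was 0.00172 (0.000469 to 0.00442), and the fitted difference of -5.29 (SE 0.20, adjusted p = 3.65e-06) ranked 4 of 11877 from the most negative. In control cells 10 reads in STAT3-KO stood against 36 in WT, a ratio of 0.276 (0.122 to 0.567), but the fitted difference of -0.48 missed the threshold (SE 0.20, adjusted p = 0.513). The IL-33 responses differed by -4.80 (SE 0.29, adjusted p = 8.23e-05). The counting intervals cover counting error only.

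Because Ly6c1 and Ly6a share sequence, the reads of both were set side by side. For every 100 Ly6a reads there were 0.131 and 0.0425 Ly6c1 reads in STAT3-KO cells with IL-33 and 4.92 and 6.85 in WT cells with IL-33. In control cells there were 0.182 and 0.240 in STAT3-KO and 0.274 and 0.510 in WT. Both WT IL-33 libraries stood above all others in this ratio. This follows from the levels of the 2 genes given above, with Ly6c1 above 1 FPKM in WT IL-33 cells alone, and is not separate evidence. How many Ly6c1 reads fell in shared stretches was not tested, since the table holds 1 value per gene.

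Ly6c2 was near the floor everywhere and did not pass the filter of 1 FPKM in 2 libraries, so that 4 of the 5 genes were tested. It had 0 and 0 reads in STAT3-KO cells with IL-33, and 0 and 3 reads (0 and 0.0673 FPKM) in WT cells with IL-33. In control cells it had 20 and 31 reads (0.434 and 0.705 FPKM) in STAT3-KO and 37 and 19 reads (0.805 and 0.438 FPKM) in WT. Every IL-33 library lay below every control library, and the genotypes overlapped within each condition. From summed reads, the ratio of WT IL-33 to WT control cells was 0.0483 (counting interval 0.00967 to 0.149). In STAT3-KO cells 0 reads with IL-33 against 51 in control put it at least 17.6-fold lower, with 3 reads over the group as the floor, and at least 13.8-fold lower by the exact 95% counting interval. In a fit of all 22075 genes without the filter, the IL-33 difference was -0.64 in STAT3-KO (SE 0.14, adjusted p = 0.0210, where 26.2% of genes were called) and -0.64 in WT (SE 0.14, adjusted p = 0.0314, where 15.9% were called). Ly6c2 went down with IL-33 in WT cells, in which its near-twin Ly6c1 went up.

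The FPKM of Ly6c1 and Ly6c2 were also added and fitted as 1 row. The sum still depends on how reads were split, since the annotated exons cover 1677 bases in Ly6c1 and 2740 in Ly6c2 and a read weighs more in the shorter gene. It differed by 4.19 for IL-33 in WT (SE 0.19, adjusted p = 2.96e-06) and by -5.29 for STAT3-KO against WT with IL-33 (SE 0.19, adjusted p = 2.33e-06). Both values were close to those of Ly6c1 alone. In STAT3-KO cells the sum fell with IL-33 (-0.70, SE 0.19, adjusted p = 0.0131), a call that Ly6c1 alone did not give. That call was lost without STAT3-KO control replicate 2 (-0.59, adjusted p = 0.0858), without STAT3-KO IL-33 replicate 2 (-0.65, adjusted p = 0.0526) and with a pseudocount of 5 (-0.18, adjusted p = 0.155). The difference between control cells of STAT3-KO and WT was -0.39 (SE 0.19, adjusted p = 0.585), and the IL-33 responses differed by -4.90 (SE 0.26, adjusted p = 6.72e-05).

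Ly6e was the most abundant of the 5 genes in 6 of the 8 libraries, the exceptions being the WT IL-33 libraries, where Ly6a was higher. It measured 344 and 295 FPKM in STAT3-KO cells with IL-33 and 512 and 500.2 FPKM in WT cells with IL-33. In control cells it measured 676 and 650.4 FPKM in STAT3-KO and 750.4 and 733 FPKM in WT. The 4 groups did not overlap and stood, lowest first, in the order STAT3-KO IL-33, WT IL-33, STAT3-KO control and WT control, with 2.55-fold between the extreme libraries. IL-33 lowered Ly6e in WT (-0.55, SE 0.09, adjusted p = 0.00278), to 68.3% of the WT control mean. In STAT3-KO cells the fall was -1.06 (SE 0.09, adjusted p = 5.72e-05), to 48.2% of the STAT3-KO control mean. With IL-33, STAT3-KO cells held 63.1% of the WT mean (-0.67, SE 0.09, adjusted p = 0.00124). In control cells the difference of -0.16 missed the threshold (SE 0.09, 95% interval -0.38 to 0.05, adjusted p = 0.701). The responses differed by -0.51 (SE 0.13, adjusted p = 0.0378), a call lost without a filter (adjusted p = 0.103), after rescaling (-0.47, adjusted p = 0.0653), without a variance trend (adjusted p = 0.129) and in 7 of the 8 fits that left out 1 library (-0.62 to -0.39 over all 8).

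Thy1 was low in one group only. It measured 2.56 and 2.37 FPKM in STAT3-KO cells with IL-33 and 31.7 and 38 FPKM in WT cells with IL-33. In control cells it measured 19.6 and 21.3 FPKM in STAT3-KO and 37.2 and 41.9 FPKM in WT. The 2 WT groups overlapped, STAT3-KO control cells lay below both, and both STAT3-KO IL-33 libraries were far below the rest, with 125 and 126 reads. IL-33 lowered Thy1 in STAT3-KO cells to 12% of their control mean (-2.63, SE 0.14, adjusted p = 3.95e-06), rank 93 of 11877 from the most negative. In WT the IL-33 difference was -0.18 (SE 0.14, 95% interval -0.50 to 0.14, adjusted p = 0.336). With IL-33, STAT3-KO cells held 7.07% of the WT mean (-3.37, SE 0.14, adjusted p = 4.22e-06), rank 18 from the most negative. In control cells they held 51.7% of the WT mean (-0.92, SE 0.14, adjusted p = 0.0375), a call that was lost in each of the 8 fits that left out 1 library (-1.0 to -0.84) and with the replicate number as a block (adjusted p = 0.0560). The responses differed by -2.45 (SE 0.20, adjusted p = 0.000365).

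**Figure D2:**
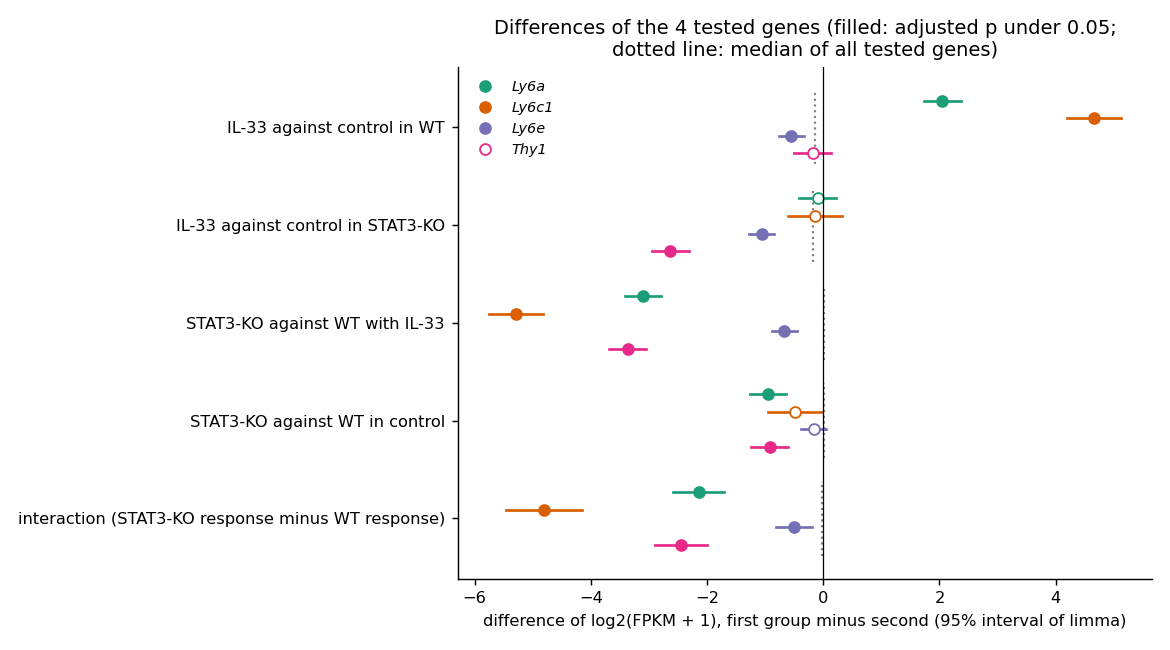
Differences of log2(FPKM + 1), first group minus second, for Ly6a, Ly6c1, Ly6e and Thy1 in the 5 comparisons (points, with the 95% interval of limma from 2 libraries a group). Filled points had an adjusted p under 0.05 and dotted lines give the median of all tested genes. Ly6a, Ly6e and Thy1 lay left of 0 in STAT3-KO against WT cells with IL-33, from -3.37 for Thy1 to -0.67 for Ly6e. Ly6c1 (-5.29) passed the filter only through WT IL-33 cells and so had to differ there.

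Calls were common across the whole table in each comparison but that of control cells. Ly6c1 passed the filter only through WT IL-33 cells, so it is left out of the following counts over Ly6a, Ly6e and Thy1. For IL-33 in WT, 1 of the 3 rose (Ly6a), 1 fell (Ly6e) and 1 was not called, where 14.5% of all tested genes rose and 21.6% fell (36.1% called). For IL-33 in STAT3-KO, 0 rose and 2 fell (Ly6e and Thy1) by limma, 2 having an unadjusted p under 0.05, where 20.4% rose and 30.6% fell (51% called). For STAT3-KO against WT with IL-33, all 3 were lower, where 16.3% of genes rose and 16.4% fell (32.6% called). For STAT3-KO against WT in control, 2 fell (Ly6a and Thy1), where 0.253% rose and 0.21% fell (0.463% called). In the difference between responses all 3 were lower in STAT3-KO, where 6.72% of genes were higher and 8.43% lower (15.1% called). These comparisons share groups of libraries, so their counts are not independent of each other. The median difference of all genes was -0.14 for IL-33 in WT and -0.18 for IL-33 in STAT3-KO, and the rescaling moved these to -0.01 and -0.02. It also moved the split of calls, to 2246 higher and 1881 lower against 1724 and 2561 as deposited in WT, and to 3062 and 2832 against 2425 and 3638 in STAT3-KO.

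The Ly6 cluster around these genes was otherwise nearly silent. Between Psca and Gpihbp1 (chr15:74714839-75599481) GENCODE M21 annotates 50 genes, 25 of them protein-coding, and 19 had a row in the table. Of 17 superfamily genes in the interval 8 had a row and 3 were tested, namely Ly6e, Ly6a and Ly6c1. Ly6g, the neutrophil marker of the same cluster, measured 0.907 and 0.196 FPKM in WT cells with IL-33 and was listed at 0 in the other libraries. Lynx1, a brake on nicotinic receptors, stayed at or below 0.555 FPKM in each library. Among the other rows, the pseudogenes Gm6610 and Gm28069 reached 1.49 and 1.11 FPKM in STAT3-KO control replicate 1. The 3 genes with high levels lie next to each other among the protein-coding members that had a row, apart from Ly6i, which stayed at or below 0.217 FPKM.

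**Figure D3:**
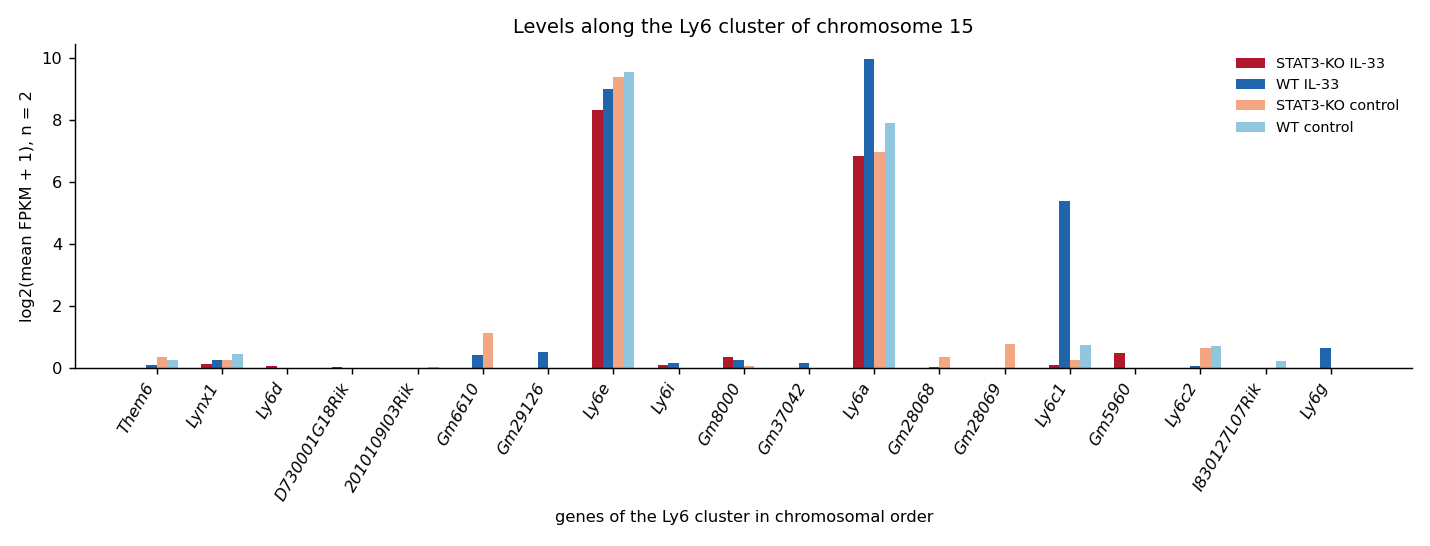
Mean level, as log2(mean FPKM + 1) from 0, of the 19 genes of the chromosome 15 Ly6 cluster that have a row in the table, in chromosomal order, with bars for STAT3-KO IL-33, WT IL-33, STAT3-KO control and WT control cells (n = 2 each, no error bars). Ly6e and Ly6a stood high in each group, Ly6c1 in WT IL-33 cells alone, and Ly6g and Lynx1 stayed below 1 FPKM.

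Beyond the cluster, 5 of 46 listed Ly6/uPAR superfamily genes were tested, of 17 with a row. The additional 2 were Ly6g5b, a family member encoded in the MHC region, and Cd59a, which blocks the membrane attack complex of complement. Ly6g5b averaged 7.41 FPKM in STAT3-KO cells with IL-33, 30.6 in WT cells with IL-33, 83.2 in STAT3-KO control cells and 90.9 in WT control cells. It fell with IL-33 in STAT3-KO (-3.34, SE 0.14, adjusted p = 1.57e-06) and in WT (-1.54, SE 0.14, adjusted p = 0.00012). Cd59a went the other way, with means of 6.47, 1.22, 0.284 and 0.272 FPKM in the same order of groups. It rose by 2.51 in STAT3-KO (SE 0.26, adjusted p = 0.000123) and by 0.80 in WT (SE 0.26, adjusted p = 0.0425). Only its IL-33 libraries reached 1 FPKM, with control libraries at no more than 0.361, so it entered the test through the groups where it was higher. In the counts that follow, Ly6c1 was tested only through WT IL-33 cells and Cd59a only through IL-33 cells. Of the 5, 3 rose and 2 fell for IL-33 in WT (median 0.80, all genes -0.14), beside 14.5% and 21.6% of all tested genes. In STAT3-KO 1 rose and 2 fell (median -0.14, all genes -0.18), beside 20.4% and 30.6%. For STAT3-KO against WT, 1 was higher and 4 lower with IL-33 (median -1.92, all genes 0.01), beside 16.3% and 16.4%. In control cells 0 were higher by limma and 1, Ly6a, was lower (median -0.16, all genes 0.02, 2 with an unadjusted p under 0.05), beside 0.253% and 0.21%. In the difference between responses 1 was higher and 4 lower (median -1.80, all genes -0.02), beside 6.72% and 8.43%. That count of 5 called was 3 without STAT3-KO control replicate 2 or either WT IL-33 replicate, and the 1 call in control cells was lost without any one library.

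The enzymes that build and remodel GPI anchors, on which all 5 proteins depend, were read from the same fit. Of 31 tested genes of 33 listed, 5 rose and 4 fell for IL-33 in WT (median -0.19), which became 7 and 3 after rescaling (median -0.05). In STAT3-KO 4 rose and 6 fell (median -0.07), which became 8 and 2 after rescaling (median 0.11). With IL-33, 1 was higher and 6 were lower in STAT3-KO than in WT (median -0.02), which became 3 and 6 after rescaling (median -0.01). These were 9, 10 and 7 calls among 31 genes, beside shares of 36.1%, 51% and 32.6% called over all tested genes. They include Gpld1, which reached 1 FPKM only in WT cells with IL-33 (1.18 and 1.34 FPKM) and entered the test through that group alone. It counts as risen in WT and as lower in STAT3-KO than in WT with IL-33. In the difference between responses 0 were higher by limma and 1 was lower (median 0.09, 8 with an unadjusted p under 0.05), where 15.1% of all tested genes were called. In control cells limma called 0 of them, 0 also at an unadjusted p under 0.05, and the most abundant, Pigs and Mpdu1, differed by 0.11 and 0.02 (median -0.07). Calls were rare there among all tested genes too, at 0.463%, and 1106 of 11877 had an unadjusted p under 0.05 (median 0.02). Pigx, a subunit of the mannosyltransferase that adds the anchor's first mannose, averaged 22.8 FPKM in STAT3-KO cells with IL-33, 71.1 in WT cells with IL-33, 21.7 in STAT3-KO control cells and 21.6 in WT control cells. It was called for IL-33 in WT (1.68, SE 0.13, adjusted p = 3.95e-05), for STAT3-KO against WT with IL-33 (-1.60, SE 0.13, adjusted p = 7.87e-05) and in the difference between responses (-1.60, SE 0.18, adjusted p = 0.00152). Mppe1, a phosphoesterase that trims the anchor, fell with IL-33 in STAT3-KO (-1.36, adjusted p = 0.00105) and in WT (-1.79, adjusted p = 0.000414). Dpm2, a subunit of the dolichol-phosphate-mannose synthase, rose with IL-33 in STAT3-KO (1.08, adjusted p = 0.00101), and the mannosyltransferase Pigz was lower in STAT3-KO than in WT with IL-33 (-2.00, adjusted p = 0.00387). The 9 calls for IL-33 in WT were 4 without WT control replicate 1 and 5 without either WT IL-33 replicate. The 10 in STAT3-KO were 4 without STAT3-KO control replicate 1 or STAT3-KO IL-33 replicate 1, 5 without STAT3-KO control replicate 2 and 6 without STAT3-KO IL-33 replicate 2. The 7 for STAT3-KO against WT with IL-33 were 3 and 2 without WT IL-33 replicates 1 and 2, and 4 without STAT3-KO IL-33 replicate 1. The single call in the difference between responses was 2 without WT control replicate 2 or STAT3-KO control replicate 2.

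Since Ly6a and Ly6e are known interferon targets, other interferon-stimulated genes were read from the same fit. Of 24 tested genes of 32 listed, 1 rose and 12 fell for IL-33 in WT (median -0.56), the comparison in which Ly6a rose. Over all tested genes 14.5% rose and 21.6% fell there (median -0.14). After rescaling 2 of the 24 rose and 9 fell in that comparison (median -0.41). In STAT3-KO cells 10 rose and 9 fell (median 0.08), where 20.4% of all tested genes rose and 30.6% fell (median -0.18). With IL-33, 13 were higher and 4 lower in STAT3-KO than in WT (median 0.52), beside 16.3% and 16.4% of all tested genes (median 0.01). The difference between responses had 12 higher and 1 lower (median 0.68), beside 6.72% and 8.43% (median -0.02). Ifit1 and Mx1 reached 1 FPKM only in STAT3-KO cells with IL-33 and Irf7 only in control cells. They entered the test only there, yet Ifit1 and Mx1 count as rises and Irf7 as a fall in STAT3-KO. Ifit1 also counts as higher in STAT3-KO than in WT with IL-33. Gbp2, a guanylate-binding protein, averaged 80.6 FPKM in STAT3-KO cells with IL-33, 15.3 in WT cells with IL-33, 49.3 in STAT3-KO control cells and 84.4 in WT control cells. It was higher in STAT3-KO than in WT with IL-33 by 2.32 (SE 0.13, adjusted p = 1.89e-05). Tap1, the peptide transporter, was higher in STAT3-KO than in WT with IL-33 by 0.74 (SE 0.10, adjusted p = 0.000841), whereas Ddx58, the RNA sensor RIG-I, was lower (-1.34, SE 0.18, adjusted p = 0.00109). In control cells 0 were higher by limma and 1 was lower, Irf9 (-0.75, SE 0.12, adjusted p = 0.0420), with 7 at an unadjusted p under 0.05 (median -0.24). Over all tested genes 0.463% were called there. Ly6a, higher with IL-33 in WT and, with IL-33, lower in STAT3-KO than in WT, had the opposite direction to most called genes of this list in both comparisons. Ly6e fell with IL-33 in WT (-0.55, adjusted p = 0.00278), as 12 of the 13 called genes did, but with IL-33 it was lower in STAT3-KO than in WT, where 13 of 17 called genes were higher. In control cells Ly6a and Irf9 were both lower in STAT3-KO than in WT. The 17 calls for STAT3-KO against WT with IL-33 were 4 and 7 without WT IL-33 replicates 1 and 2 and 9 without STAT3-KO IL-33 replicate 1. The 13 in the difference between responses were 5 to 7 without any one library other than WT control replicate 2 or STAT3-KO IL-33 replicate 2, and the 19 for IL-33 in STAT3-KO were 12 without STAT3-KO control replicate 2. The Irf9 call was lost without any one library.

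Other surface markers of ILC2s were compared as neighbours of Sca-1 and Thy1 on the same cells. Of 16 tested genes of 18 listed, 5 rose and 4 fell for IL-33 in WT (median 0.04), beside 14.5% and 21.6% of all tested genes (median -0.14). In STAT3-KO 3 rose and 12 fell (median -0.95), beside 20.4% and 30.6% (median -0.18). With IL-33, 1 was higher and 13 were lower in STAT3-KO than in WT (median -1.34), beside 16.3% and 16.4% of all tested genes (median 0.01). In the difference between responses 0 were higher by limma and 11 were lower (median -1.20, 13 with an unadjusted p under 0.05), beside 6.72% and 8.43% (median -0.02). Among the genes called, Cd2 entered the test through WT IL-33 cells, the only group with both libraries above 1 FPKM (2.34 and 3.32). Klrg1, an inhibitory receptor of mature ILC2s, averaged 289 FPKM in STAT3-KO cells with IL-33, 914 in WT cells with IL-33, 615 in STAT3-KO control cells and 876 in WT control cells. It was lower in STAT3-KO than in WT with IL-33 (-1.66, SE 0.09, adjusted p = 1.79e-05). Also lower there were Il7r, the IL-7 receptor (-1.25, adjusted p = 7.13e-05), Cd69, an early activation antigen (-1.53, adjusted p = 0.000112), and Il2ra, the high-affinity IL-2 receptor subunit (-1.48, adjusted p = 0.000258). In control cells limma called 0 of the 16, with 5 at an unadjusted p under 0.05 (median 0.14), and the call count was 1 without WT control replicate 2. Among all tested genes in control cells, 0.463% were called and 1106 of 11877 had an unadjusted p under 0.05 (median 0.02). Klrg1 and Arg1, the most abundant of the 16, differed there by -0.51 (adjusted p = 0.0761) and -0.10 (adjusted p = 0.850). Ly6a and Thy1 shared the direction of most of this list with IL-33, lower in STAT3-KO than in WT.

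**Figure D4:**
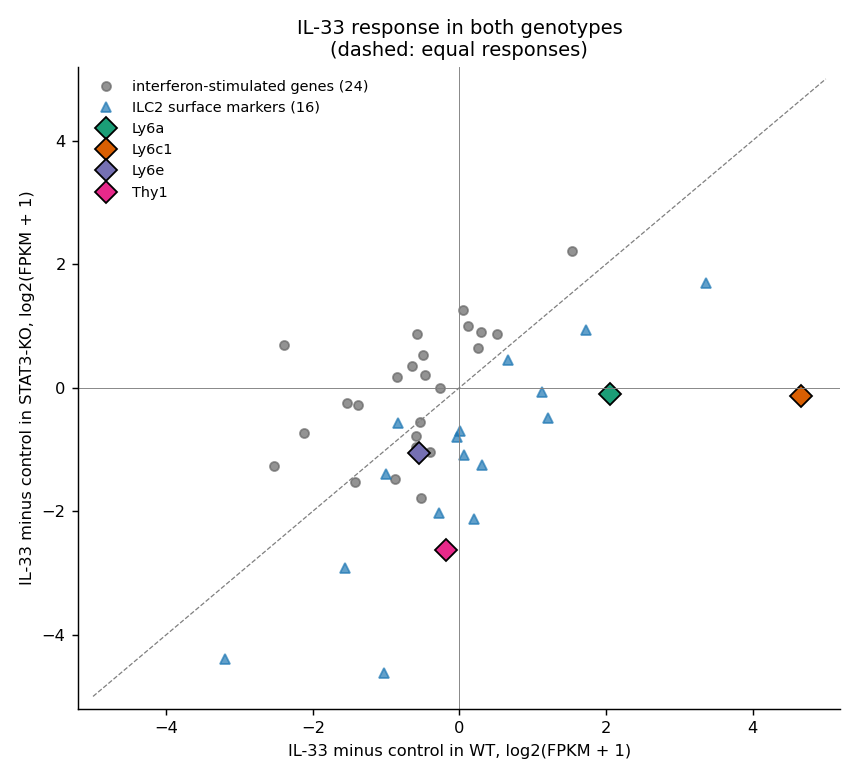
IL-33 minus control difference of log2(FPKM + 1) in STAT3-KO cells (vertical) against that in WT cells (horizontal) for Ly6a, Ly6c1, Ly6e and Thy1 (diamonds), 24 interferon-stimulated genes (circles) and 16 ILC2 surface markers (triangles). Each point is 1 gene from 2 libraries a group, and the dashed line marks equal responses. The diamonds of Ly6a, Ly6e and Thy1 lie below the line, with Ly6a at 2.05 in WT and -0.10 in STAT3-KO and Thy1 at -0.18 and -2.63. The diamond of Ly6c1 does too, but this gene passed the filter only through WT IL-33 cells.

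For each of the 4 tested genes, the genes closest in pattern were sought among 5914 tested genes with a mean of at least 5 FPKM. Likeness was the root mean square difference of centred log2(FPKM + 1) over the 8 libraries, with lower values closer, and it is a description with no test. Closest to Ly6a were Id1, an inhibitor of basic helix-loop-helix factors (0.335), Bcl3, an IkB-type co-regulator of NF-kB (0.393), and Zfyve16, an endosomal FYVE-domain protein (0.397). Id1 averaged 2.07 FPKM in STAT3-KO cells with IL-33, 14.1 in WT cells with IL-33, 1.93 in STAT3-KO control cells and 4.55 in WT control cells. Closest to Thy1 were Id3, a relative of Id1 (0.328), the transcription factor Ets1 (0.366) and the kinase Lck (0.396). Id3 averaged 2.97, 37, 24 and 29.5 FPKM in the same order of groups. For Ly6e they were Sash3, a lymphocyte adaptor (0.0894), Twf2, an actin-binding twinfilin (0.0910), and Mis18a, a centromere protein (0.0918). For Ly6c1 they were Usp17ld, a deubiquitinase (0.727), Mcpt8, a protease of basophils (0.733), and Lhfpl1 (0.743), at distances so large that only the peak in WT IL-33 cells was shared. Mcpt8 averaged 0.123, 103, 0 and 0.0632 FPKM in the same order.

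**Figure D5:**
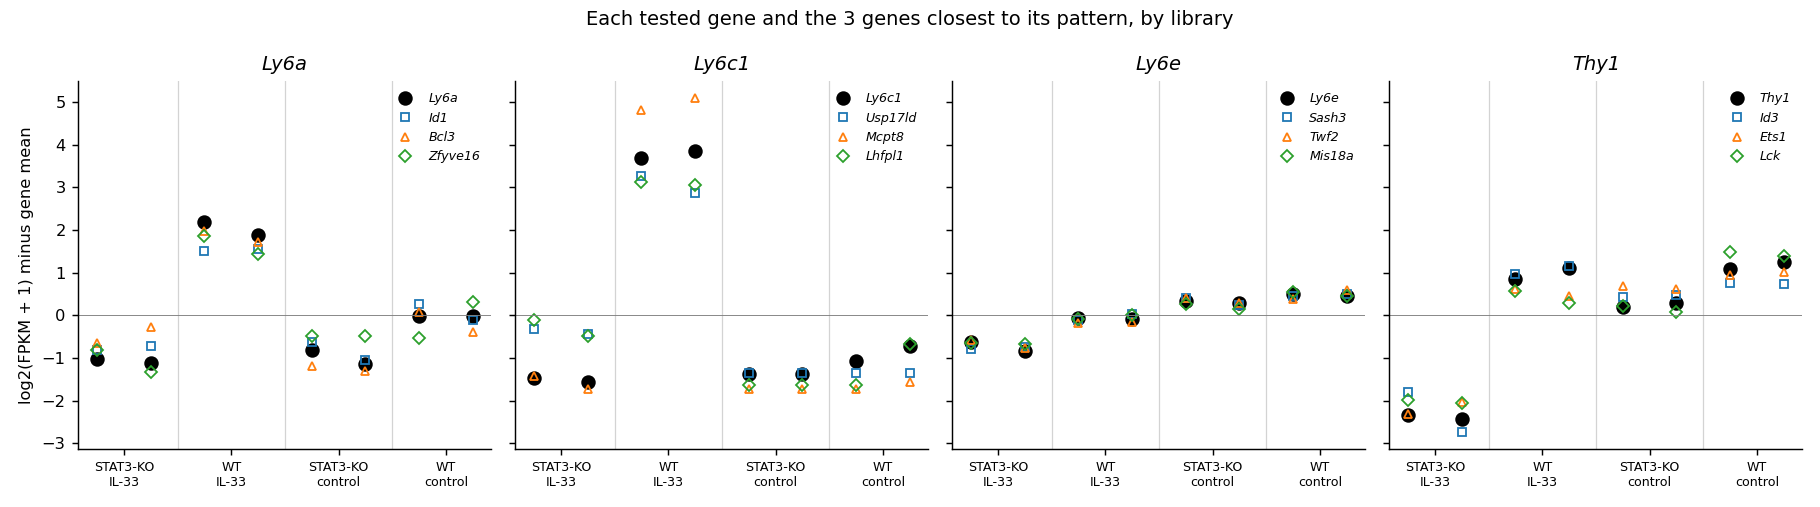
log2(FPKM + 1) minus the gene's own mean over the 8 libraries (vertical axis) for Ly6a, Ly6c1, Ly6e and Thy1 (filled circles) and the 3 genes closest to each (open symbols), by library within STAT3-KO IL-33, WT IL-33, STAT3-KO control and WT control cells. The neighbours of Ly6e lay nearly on it, at distances of 0.0894 to 0.0918, whereas those of Ly6c1 lay 0.727 to 0.743 away.

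Ly6C, Sca-1 and Thy1 are also carried by other cells, so markers of these were summed. The defining monocyte, macrophage and granulocyte genes Lyz2, Adgre1, Cd14 and Ly6g stayed below 1 FPKM in each library. Lyz2 had reads only in WT IL-33 replicate 1 (0.878 FPKM) and Ly6g only in WT IL-33 cells (0.907 and 0.196 FPKM). Adgre1 and Cd14 had their highest means in STAT3-KO cells with IL-33 (0.542 and 0.249 FPKM). Of that list 5 of 12 genes had a row, and its sum, nearly all from Ccr2, was 86.1 to 105 FPKM in STAT3-KO cells with IL-33, 300.1 to 346 in WT cells with IL-33, 433 to 435 in STAT3-KO control cells and 503 to 551 in WT control cells. That sum was highest in WT control cells, whereas Lyz2 and Ly6g were highest where Ly6c1 was. Of the endothelial list 4 of 8 had a row, and the sum was 21.7 to 26.9, 24.4 to 25.8, 18.6 to 19.1 and 15.3 to 17.2 FPKM in the same order, nearly all from Pecam1, with Tek and Vwf at most 0.065 FPKM. Egfl7, the other gene of that list, measured 0.480 and 0.283 FPKM in STAT3-KO cells with IL-33, 1.12 and 0.618 in WT cells with IL-33, 0.116 and 0.139 in STAT3-KO control cells and 0.666 and 0.176 in WT control cells, with its highest mean where Ly6c1 peaked. Of the T cell list 8 of 9 had a row, with sums of 6.02 to 7.75, 6.62 to 6.82, 9.54 to 11.9 and 8.07 to 10.7 FPKM, mainly from Cd3g, while Cd3e and Cd3d stayed below 0.4 FPKM. Beside that sum, Thy1 measured 2.56 and 2.37 FPKM in STAT3-KO cells with IL-33 and 31.7 and 38 FPKM in WT cells with IL-33. Trac, the T cell receptor alpha constant gene, measured 0.722 and 1.32 FPKM in STAT3-KO cells with IL-33, 1.45 and 2.17 in WT cells with IL-33, 2.29 and 0.800 in STAT3-KO control cells and 3.82 and 0.878 in WT control cells. Its group means stood in the same order as those of Thy1, and its libraries overlapped between groups. B and plasma cell genes (5 of 8 with a row) summed to 29.2 to 33.8, 15.9 to 17.7, 4.79 to 4.81 and 9.34 to 9.53 FPKM, and stromal genes (5 of 8) to 0.671 to 1.04, 1.71 to 2.49, 0.239 to 0.499 and 0.979 to 1.13 FPKM. Genes of NK cells and ILC1 (6 of 7) summed to 4.44 to 4.98, 3.12 to 3.25, 28.1 to 32.3 and 10.2 to 11.6 FPKM, and those of ILC3 (3 of 4) to 0.792 to 0.863, 0.259 to 0.597, 2.26 to 2.56 and 3.83 to 4.52 FPKM. The B cell sum was highest in STAT3-KO IL-33 cells, where Thy1 was lowest. The stromal sum and the sum of ILC2 markers (3361 to 3657, 9145 to 9879, 2813 to 2865 and 2684 to 2866 FPKM) were highest in WT IL-33 cells, as Ly6a and Ly6c1 were. The part of these sums and of Lyz2, Ly6g, Egfl7 and Trac in the results was not tested. The ILC2 sum was carried by Il5 and Il13, cytokines that averaged 3500.0 and 2402 FPKM in WT cells with IL-33. Of its 13 genes 4 rose (Il2ra, Areg, Il5 and Il13) and 6 fell (Gata3, Il7r, Rora, Icos, Il17rb and Cd44) for IL-33 in WT (median -0.69). Over all tested genes 14.5% rose and 21.6% fell there (median -0.14). In STAT3-KO 4 of the 13 rose and 9 fell (median -1.39), beside 20.4% and 30.6% of all tested genes (median -0.18). With IL-33, 1 was higher and 9 were lower in STAT3-KO than in WT (median -1.34), beside 16.3% and 16.4% (median 0.01). Of the further basophil genes looked up after the level of Mcpt8 was seen, Fcer1a, Ms4a2 and Prss34 had no row. The other 2 were low in each library, Cd200r3 at no more than 0.831 FPKM and Hdc at no more than 0.513 FPKM.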

How the data were processed

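The 8 libraries come from cultured mouse lung ILC2s, 2 a group. Values are FPKM as deposited; the authors used Bowtie2, RSEM and GRCm38, per the submitters' processing notes, and versions, annotation, filter and strand setting are not given in the sources used here. Whole-read steps in the FPKM values gave each library's depth (93.4% to 94.6% of values of up to 100 reads lay within 0.02 of a whole number). For Ly6a, Ly6c1, Ly6c2, Ly6e and Thy1 the largest gap to a whole number was 0. RSEM estimates counts that need not be whole, and this conflict was not resolved. Whether reads from shared stretches were dropped or divided between genes is not known. The reads and counting intervals of Ly6c1 and Ly6c2 take the deposited values as given. Tests used limma 3.58.1 in R 4.3.3 on log2(FPKM + 1), with 1 mean per group, a variance trend and 11877 genes of at least 1 FPKM in at least 2 libraries, two-sided, called at an adjusted p of 0.05. Such fold changes understate those of low genes. An exact permutation test of 2 against 2 libraries cannot go below 0.333. Counting intervals are exact, at 95%. The fit was tested on simulated data. Positions and transcripts came from GENCODE M21 (22041 of 22075 identifiers matched), aligned with Biopython 1.88 in Python 3.11.15.

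The 5 genes and the lists (superfamily, GPI anchor, interferon, ILC2 surface, cell markers) were chosen with earlier results of these data known. Genes named from a list were drawn from up to 4 called genes of smallest p in a comparison, or the 2 most abundant where 0 were called, and those closest in pattern were the nearest 3, without unnamed gene models and pseudogenes. Alternatives changed the pseudocount, filter, scaling, variance trend, libraries fitted and replicate block, and left out each library.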

Additional observations from a re-analysis of the deposited data

Results flagged for a closer look

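The IL-33 response differed between STAT3-KO and WT cells for Thy1, Ly6a and Ly6e, by limma's test of that difference with p adjusted over all tested genes. For Thy1 the difference was -2.45 (SE 0.20, adjusted p = 0.000365), where IL-33 lowered the gene in STAT3-KO and no change was called in WT. For Ly6a it was -2.14 (SE 0.19, adjusted p = 0.000676), where no change was called in STAT3-KO and IL-33 raised the gene in WT. For Ly6e it was -0.51 (SE 0.13, adjusted p = 0.0378), a gene that fell in both genotypes, a call that was lost under 3 processing alternatives and in 7 of the 8 fits that left out 1 library. For Ly6c1 it was -4.80 (SE 0.29, adjusted p = 8.23e-05), with 0.110 and 0.0336 FPKM in STAT3-KO cells with IL-33 and 38.5 and 43.2 FPKM in WT cells with IL-33, but that gene passed the filter only through WT IL-33 cells and so had to differ.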

How the results depend on the processing

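For Ly6a, Ly6c1, Ly6e and Thy1, in both IL-33 comparisons and between the genotypes with IL-33, 194 of 195 refits kept the side of the threshold and 193 the direction. Many of these refits could not turn the direction. A changed filter, trend, block or set of groups left the difference itself unchanged, as did leaving out a library of another group. The tally also holds Ly6c1, which passed the filter only through WT IL-33 cells. The side changed for Ly6c1 in STAT3-KO, called as the sum with Ly6c2 (-0.70, adjusted p = 0.0131). The direction changed for Ly6a for IL-33 in STAT3-KO, which was not called, after rescaling (0.11) and without STAT3-KO control replicate 1 (0.069, range -0.26 to 0.069 without 1 library). The cause of the changes below was not tested, except that fewer libraries leave fewer degrees of freedom.

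For STAT3-KO against WT in control, the 55 genes called became 34 with a pseudocount of 0.1 and 0 with only those 4 libraries in the limma fit (1062 at an unadjusted p under 0.05), and 1 to 35 when 1 library was left out. Ly6a there kept -0.95 but missed the threshold without a filter (adjusted p = 0.103), with only those groups (0.282) and without a trend (0.104), and spanned -1.12 to -0.79 without 1 library. Thy1 missed it at -0.95 with a pseudocount of 0.1 (adjusted p = 0.0610) and at -0.92 without a filter (0.0612), with the replicate block (0.0560), with only those groups (0.218) and without a trend (0.0783), and spanned -1.0 to -0.84 without 1 library.

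In the difference between responses the 1799 genes called became 1149 without a filter, and 764 to 1993 without 1 library. Ly6e missed the threshold at -0.51 without a filter (adjusted p = 0.103) and without a trend (0.129) and at -0.47 after rescaling (0.0653), and spanned -0.62 to -0.39 without 1 library. The sum of Ly6c1 and Ly6c2 in STAT3-KO was -0.18 with a pseudocount of 5 (adjusted p = 0.155) and -0.82 to -0.59 without 1 library. Leaving out 1 library gave 2550 to 4301 genes for IL-33 in WT (4285 in the full fit) and 2117 to 4013 for STAT3-KO against WT with IL-33 (3876).

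Same-numbered replicates did not deviate together (Pearson's r of -0.06 to 0.04 across 11877 genes between pairs of groups), and no label says that a number marks a shared animal or day. With the replicate block, 37 genes were called for STAT3-KO against WT in control, and Thy1 there (-0.92, adjusted p = 0.0560) was the only call of the 4 genes that the block changed.

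Counts over the lists, an alternative chosen after seeing the data, differed by more than 1.5 times in 66 of 316 refits. Beside those given with the lists, the interferon list had, without a filter, 10 calls between the genotypes with IL-33 and 8 in the difference between responses, and 12 for IL-33 in STAT3-KO with at least 5 FPKM. The GPI list had 5 and 3 calls without a filter for IL-33 in STAT3-KO and between the genotypes with IL-33. Depth limits Ly6c1 outside WT IL-33 cells and Ly6c2 throughout, where a few reads set the value.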
